A study of Mus musculus with 8 samples.

Results

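The genes described here are Abca5, Abca6, Abca7, Abca8a, Abca8b, Abca9, Abca13, Abcg5 and Abcg8, 9 mouse genes of the ATP-binding cassette (ABC) families A and G whose products move, or are thought to move, lipids. They were taken by symbol from 21887 protein-coding genes of a RefSeq gene table, and all 9 were found in it. They were selected on the length of called peaks around ABC genes, with results of these same peak lists known, so their values are a description and carry no test. The measure throughout is called length, the base pairs of a gene's window that lie in a library's deposited peaks, and the window is the gene plus flanks of 5 kb. A gene entered the model over all genes where its called length averaged at least 500 bp over the 8 libraries, as 14589 genes did. Of the 9 genes, 8 passed. Abca8a lay just inside that minimum, with a mean of 694 bp, and Abcg5 lay just outside it, with 368 bp.

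ABC transporters bind ATP and use its hydrolysis to move a substrate across, or between the leaflets of, a membrane. Family A proteins are complete transporters in a single chain, while family G proteins must pair to make one. In macrophages, the related Abca1 and Abcg1 pass cholesterol to lipoproteins and are induced through the liver X receptors, nuclear receptors that oxysterols activate. Abca7 is close in sequence to Abca1 and is known for phospholipid transport, phagocytosis and a genetic link to Alzheimer's disease. Abca5, Abca6, Abca8a, Abca8b and Abca9 lie side by side and form a subgroup of their own. Abcg5 and Abcg8 make the heterodimer that exports plant sterols and cholesterol in liver and intestine, and loss of either causes sitosterolaemia.

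Acetylation of histone H4 marks chromatin at promoters and enhancers in use, and was mapped here by chromatin immunoprecipitation and sequencing in macrophages grown from the bone marrow of C57BL/6 mice. The 4 groups were untreated cells, cells given PAM3 (PAM3CSK4, a lipopeptide that stimulates Toll-like receptors), cells given 25HC (25-hydroxycholesterol, an oxysterol) and cells given 25HC and then PAM3. The labels name the mouse of every library, and mouse A and mouse B each gave 1 library to every group, so n = 2 in each group and the libraries of a letter share an animal. No genotype other than C57BL/6 is named, and the stimulation time in the labels has no unit and reads 0 without PAM3 and 18 with it. An effect of PAM3 and one of that time cannot be told apart.

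The 8 lists held 48446 to 54552 peaks, which covered 56.6 Mb (PAM3, mouse A) to 72.4 Mb (PAM3, mouse B). Without read counts the depth is unknown, and no counting interval can be given. All 10 macrophage markers, among them Csf1r, Adgre1 and Spi1, had a peak in every library, with a summed called length of 67851 to 79204 bp without PAM3 and 73448 to 99590 bp with it. Of 5 liver and gut genes, Alb, Ttr and Cdx2 were listed at 0 in all 8 libraries, while Vil1 had called length in each. Apoa1 was listed at 0 in PAM3 B and in both 25HC then PAM3 libraries. The 5 genes summed to 4699 to 7929 bp without PAM3 and 4545 to 5778 bp with it. Of 4 endothelial markers, 3 or 4 had a peak in each library. They summed to 14401 to 17768 bp without PAM3 and 15112 to 17398 bp with it. Each library had a peak at 2 or 3 of 4 B cell and of 4 neutrophil markers. The neutrophil list summed to 3298 to 4036 bp without PAM3 and 1270 to 3363 bp with it, which overlap. The B cell list summed to 3211 to 6711 bp without PAM3 and 3073 to 4993 bp with it. The 4 fibroblast markers summed to 0 to 3187 bp without PAM3 and 378 to 1438 bp with it. The 3 erythroid markers summed to 2755 to 3063 bp without PAM3 and 2706 to 3116 bp with it. The 4 dendritic cell markers (Flt3, Zbtb46, Siglech, Clec9a) summed to 17640 to 25491 bp in the 4 libraries without PAM3 and 10607 to 14454 bp in the 4 with it, which do not overlap. Of 4 T cell markers, Cd2 had called length in each library without PAM3 and none with it, while Cd3e was listed at 0 throughout. Cd3d and Lck had called length in all 8 libraries. The T cell list summed to 6052 to 7659 bp without PAM3 and 4565 to 6557 bp with it, which overlap. The dendritic cell sum and the called length of Cd2 were both lower with PAM3. The part of any of these markers in the values below was not tested.

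Promoter windows in a RefSeq table on GRCm38.p6 run from 250 bases before a start site to 50 after it. Of the 9 genes 8 had an entry, with 9 windows because Abcg8 has 2. A window counts as called in a library where peaks cover at least 150 of its 300 bases. The 6 sequences are the 250 bases upstream of the start, 5′ to 3′ on the gene's strand. They are shown because they cover the range of these promoters, from called in all 8 libraries (Abca7, Abca9), through called in 7 (Abca5, Abca8b) or only with PAM3 (Abca8a), to called in none (Abcg5). Capitals mark a GC box, a CCAAT box, a TATA box, an E-box or a GATA site, each searched on both strands with the letters given after the sequences.
Abca7: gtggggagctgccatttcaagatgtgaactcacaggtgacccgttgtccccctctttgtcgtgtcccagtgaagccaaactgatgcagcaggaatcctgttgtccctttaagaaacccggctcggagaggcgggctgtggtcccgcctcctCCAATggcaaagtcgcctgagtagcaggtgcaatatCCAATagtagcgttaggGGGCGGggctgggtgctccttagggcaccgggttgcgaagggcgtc
Abca9: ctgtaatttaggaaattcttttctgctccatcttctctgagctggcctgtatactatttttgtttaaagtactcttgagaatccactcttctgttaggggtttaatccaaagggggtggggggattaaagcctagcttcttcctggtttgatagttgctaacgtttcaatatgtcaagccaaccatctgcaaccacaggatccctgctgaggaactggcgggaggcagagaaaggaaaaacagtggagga
Abca5: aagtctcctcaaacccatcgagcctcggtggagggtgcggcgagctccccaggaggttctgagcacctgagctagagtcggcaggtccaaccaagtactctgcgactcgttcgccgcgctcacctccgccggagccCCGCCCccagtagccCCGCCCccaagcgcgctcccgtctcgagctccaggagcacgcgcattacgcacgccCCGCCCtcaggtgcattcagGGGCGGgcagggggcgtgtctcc
Abca8b: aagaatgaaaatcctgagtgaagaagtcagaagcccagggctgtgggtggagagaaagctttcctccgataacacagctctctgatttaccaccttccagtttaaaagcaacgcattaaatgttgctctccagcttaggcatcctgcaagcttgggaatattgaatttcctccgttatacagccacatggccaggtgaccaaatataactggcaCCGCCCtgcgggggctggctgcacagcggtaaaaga
Abca8a: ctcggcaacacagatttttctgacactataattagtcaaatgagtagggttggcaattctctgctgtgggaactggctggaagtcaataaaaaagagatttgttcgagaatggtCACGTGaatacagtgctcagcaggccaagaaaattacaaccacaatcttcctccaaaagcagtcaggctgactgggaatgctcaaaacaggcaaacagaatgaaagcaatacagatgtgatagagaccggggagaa
Abcg5: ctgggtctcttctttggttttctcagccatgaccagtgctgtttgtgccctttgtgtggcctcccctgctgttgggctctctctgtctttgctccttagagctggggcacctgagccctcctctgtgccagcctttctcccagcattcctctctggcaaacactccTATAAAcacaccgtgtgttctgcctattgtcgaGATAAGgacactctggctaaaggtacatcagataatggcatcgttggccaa
Abca7 is read here from chr10:79996244-79996493 on the plus strand, and the other 5 are from minus strands. Those are chr11:110168154-110168403 for Abca9, chr11:110337717-110337966 for Abca5, chr11:109995846-109996095 for Abca8b, chr11:110095938-110096187 for Abca8a and chr17:84683012-84683261 for Abcg5.

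The 2 windows called in every library differed widely in base composition. That of Abca7 had 60.7% G and C and 19 CG dinucleotides, with a GC box and 2 CCAAT boxes. That of Abca9 had 45.3% G and C and 2 CG dinucleotides, fewer than any other of these windows, and none of the motifs in capitals. Among all 21263 promoter windows, 8067 (37.9%) were called in all 8 libraries, with a median of 22 CG dinucleotides, and 9358 (44.0%) were called in none, with a median of 4. Abca9 was therefore called in every library with a CG content like that of the uncalled class. Abca5, with 40 CG dinucleotides and 5 GC boxes (4 of them upstream of the start), and Abca8b, with 10 and 1 GC box, were both called in every library but untreated mouse A. Windows missing in that library alone numbered 217 (1.02%) of all promoters. The Abca8a window had 4 CG dinucleotides and an E-box. It was called in PAM3 mouse B (220 of 300 bases) and in 25HC then PAM3 mouse B (267 of 300 bases). It had no called base in the other 6 libraries. The Abca8b window held an E-box as well, outside the bases printed above.

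No library had a called window at Abca13, at Abcg5 or at the main start of Abcg8. The windows of Abcg5 and Abcg8 overlap between their opposed starts, so the same TATA and GATA letters are read in both, on opposite strands. The second Abcg8 window was called in untreated mouse B alone. Over all promoters of this length, 46.2% held the GC box, searched as GGGCGG, and 38.2% held the CCAAT box, searched by those 5 letters. The TATA box, searched as TATAAA, was in 12.6%. The E-box, searched as CACGTG, was in 7.84%. The GATA site, searched as GATAAG, was in 6.92%. An AP-1 site, searched as TGANTCA, was in 6.99% of all windows and in none of these 9. The core of sites for the macrophage factor PU.1 (GAGGAA, left in lower case) was in 5 of the 9 windows and in 27.4% of all. The Abcg5 and Abcg8 windows were among these 5, and their overlap holds the same site, read on opposite strands. The core of nuclear receptor sites (AGGTCA) was in none of the 9 and in 14.7% of all. The liver X receptor element (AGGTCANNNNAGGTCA), which contains that core, was in none of the 21263 windows.

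**Figure D1:**
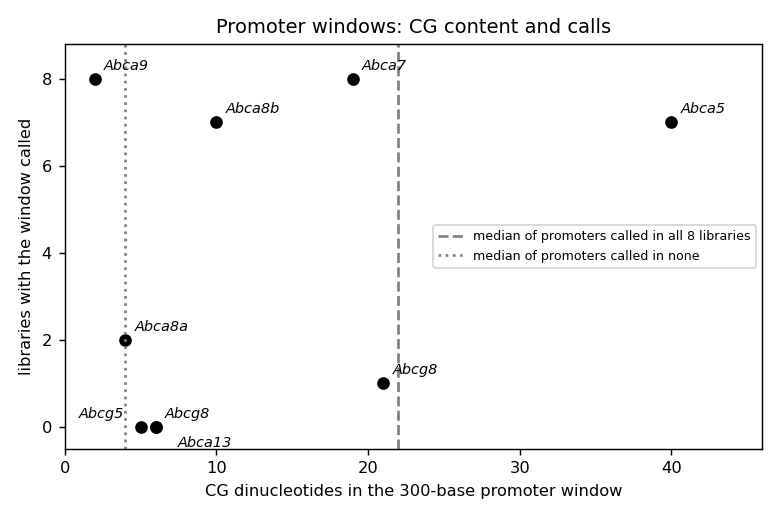
CG dinucleotides in each 300-base promoter window (horizontal) and the number of the 8 libraries in which the window was called (vertical), 1 point per window; lines give the medians of 22 and 4 for promoters called in all 8 libraries and in none. Abca9 stands at 8 libraries with 2 CG dinucleotides, while Abca5 has 40.

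The 9 windows held 121 peaks over the 8 libraries, 94 in the window of 1 gene and 27 in windows of more than 1. Their median length was 1242 bp, against 1152 bp for all 408030 peaks. The median −log10 q (the authors' value, from the peak caller) was 8.13, against 6.49 for all. Merged where they overlap by 1 bp or more, they made 33 regions, of which 5 were called in all 8 libraries and 10 in a single one. Over the genome, 29.8% of 83299 merged regions were called in all 8 and 22.4% in one.

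**Figure D2:**
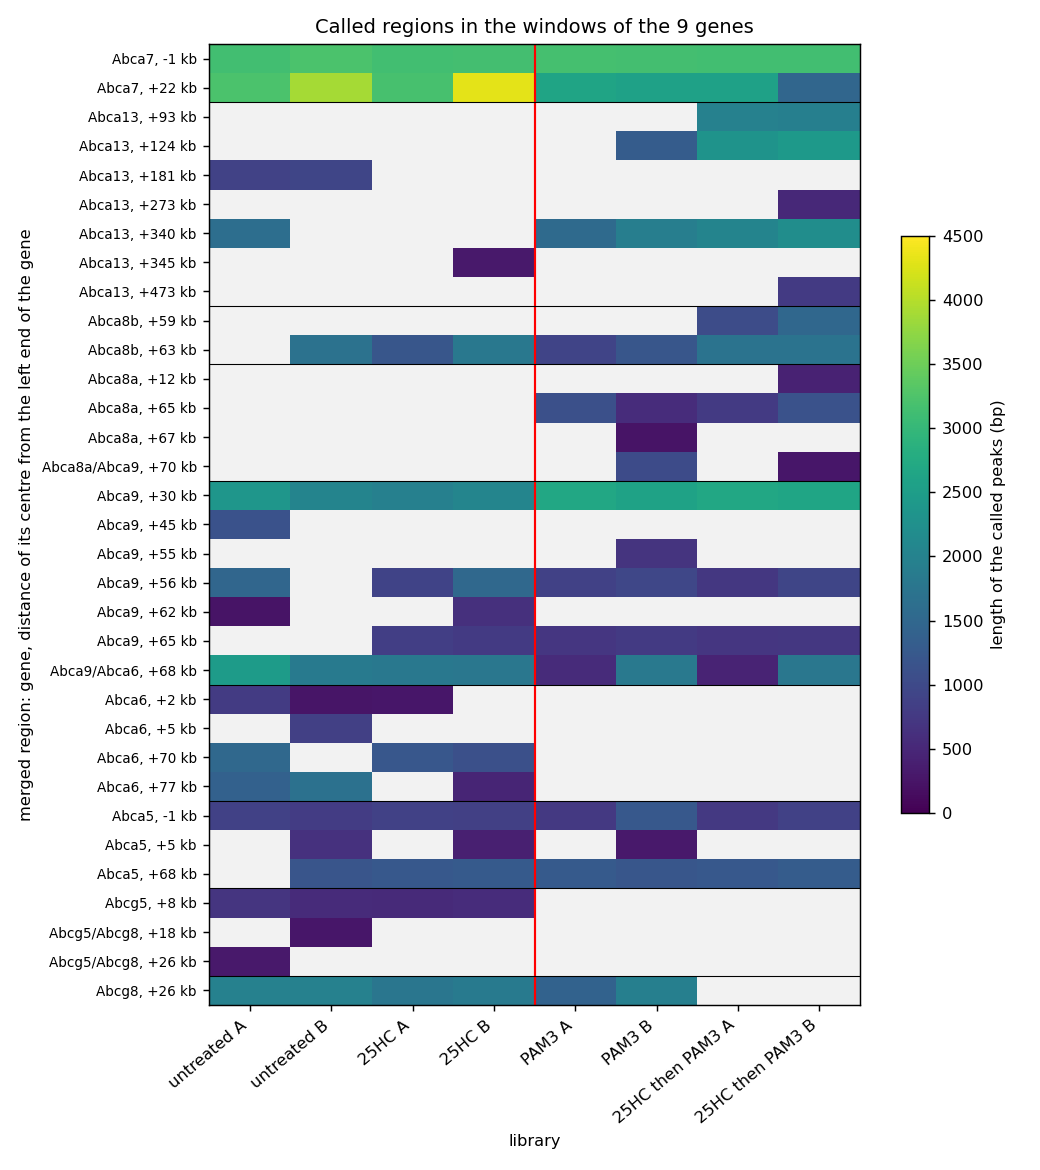
Length of the called peaks (colour, bp) in each merged region (rows, named by gene and by the distance of the region's centre from the left end of the gene) in each library (columns); the red line parts the libraries without PAM3 (left) from those with it (right), and pale cells hold no peak. Regions of Abcg5, and those of Abca6 not shared with Abca9, are filled on the left alone, and those of Abca8a on the right alone.

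Per length of window, Abca7 carried the most called sequence, 21.1% ± 3.05 (SD over the 8 libraries), where the median tested gene had 8.33%. Abca9 followed with 7.54% ± 1.75, then Abcg8 with 4.23% ± 2.73 and Abca5 with 2.72% ± 0.747. Abca8b had 2.16% ± 1.39, Abca6 1.45% ± 1.84, Abcg5 1.06% ± 1.2, Abca8a 0.846% ± 1.002 and Abca13 0.565% ± 0.569. Abca7 stood apart from Abca9 by more than their spread. From Abca9 downward, neighbours in this order differed by less than the larger of their SDs, except for Abca9 and Abcg8, whose gap exceeded it while their ranges overlapped. The pooled order also depends on which groups are at 0. In untreated cells alone the means were 23.1% for Abca7, 7.45% for Abca9, 6.67% for Abcg8, 4.06% for Abca6, 2.63% for Abcg5, 2.23% for Abca5, 1.15% for Abca8b, 0.342% for Abca13 and 0 for Abca8a.

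The 5 genes of the chromosome 11 cluster, which spans 416 kb with its flanks, did not move as a block. Its total called length was 8877 to 13316 bp per library, in 8 to 12 peaks. The mean of the 2 libraries was 11628 ± 903 bp (SD) in untreated cells, 10735 ± 2627 bp with PAM3, 11479 ± 1631 bp with 25HC and 11722 ± 2255 bp with 25HC then PAM3. The means differed by less than the largest of these SDs, while single genes inside the cluster went to and from 0.

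Abca6 (chr11:110174638-110251776), a transporter of the cluster tied to macrophage lipid handling, had called length only without PAM3. It was 4273 bp (mouse A) and 2796 bp (mouse B) in untreated cells, 1492 and 1578 bp with 25HC, and 0 in each of the 4 libraries with PAM3. Both 25HC libraries were below both untreated ones. The called length came from 4 regions of its own, called in different sets of libraries. The one at chr11:110243765-110245344 was called in untreated A and both 25HC libraries, and the one across the right end of the gene, chr11:110250490-110253083, in both untreated libraries and 25HC B. The strongest peak near any of the 9 genes, with an authors' −log10 q of 66.1, lay in Abca6 in untreated A, and at the same region untreated B had 2.86. In untreated A, 573 bp of the total came from a peak shared with the window of Abca9.

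Abca8a (chr11:110025634-110097580), whose family members are tied to cholesterol efflux, showed the reverse. It was listed at 0 in the 4 libraries without PAM3, and had 1107 and 1844 bp with PAM3 and 765 and 1832 bp with 25HC then PAM3, mouse A first. One region inside the gene, chr11:110090350-110091516, was called in all 4 PAM3 libraries and in no other. Its centre lies 5004 bp downstream of the start site. Its lengths there were 1107, 574, 765 and 1126 bp. Regions of this kind, in all 4 libraries with PAM3 and none without, made up 1.68% of merged regions over the genome, and the mirror class made up 1.63%. Mouse B alone added a peak at the start site, in both PAM3 groups, which also lies in the window of Abca9.

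Having called bp in all 4 libraries without PAM3 and in none with it was the pattern of Abca6 and Abcg5, and of 0.334% of all protein-coding genes. The opposite pattern held for Abca8a and for 0.169%. In bulk cells, fewer cells carrying the mark and less of the mark per cell cannot be told apart.

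Abca8b (chr11:109932206-109996274), the neighbour of Abca8a and likewise tied to cholesterol efflux, had most called length after 25HC then PAM3. It had 0 and 1703 bp in untreated cells, 915 and 1202 bp with PAM3, 1206 and 1801 bp with 25HC, and 2772 and 3217 bp with both. The last pair lay above the other 6. A region at its start site, chr11:109994395-109996232, was called in 7 libraries. A second one, chr11:109990561-109992059, centred 4535 bp downstream of the start site, was called only in the 25HC then PAM3 libraries, with 1050 and 1499 bp.

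Abca9 (chr11:110100749-110168274), linked to macrophage lipid handling like Abca6, was called in every library, with 7697 and 3862 bp untreated, 4838 and 7169 bp with PAM3, 5511 and 6727 bp with 25HC, and 4597 and 6355 bp with both. The groups overlapped, and the 2 untreated libraries were the highest and the lowest of the 8. Within it, the region chr11:110129155-110131926 was longer in each PAM3 library (2600 to 2705 bp) than in any other (1967 to 2363 bp). The region at the start, chr11:110167742-110170210, shared with the window of Abca6, had 450 to 1816 bp with PAM3 and 1784 to 2463 bp without, which overlap.

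Abca5 (chr11:110269369-110337723), a transporter of lysosomes and late endosomes, had between 1993 and 2736 bp in 7 libraries and less in 1. It had 869 and 2628 bp untreated, 2017 and 2736 bp with PAM3, 2117 and 2526 bp with 25HC, and 1993 and 2179 bp with both. Untreated mouse A was the low one, since the promoter region chr11:110336826-110338171 was not called there, and it had 1192 to 1313 bp in the other 7. A region beyond the 3′ end, chr11:110267518-110268768, was called in all 8, at 743 to 1235 bp.

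Abca7 (chr10:79996453-80015572), the phospholipid transporter, was shorter in each PAM3 library. It had 6363 and 7116 bp untreated, 5792 and 5740 bp with PAM3, 6333 and 7472 bp with 25HC, and 5724 and 4635 bp with both, so the 4 with PAM3 lay below the 4 without. Its promoter region, chr10:79994107-79997403, which also reaches Cnn2, held its length at 3132 to 3229 bp in all 8. The difference lay in the other region, chr10:80015949-80020271, with 3196 to 4323 bp without PAM3 and 1490 to 2620 bp with it. That region lies past the end of Abca7 and overlaps the body of Arhgap45, whose start site is 1195 bp from the region's centre, so it cannot be assigned to Abca7. Among regions called in all 8 libraries, 17.8% had lengths that did not overlap between PAM3 and no PAM3, as this one and the Abca9 region did.

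Abca13 (chr11:9191942-9684871), which encodes an exceptionally large protein and lies far from the cluster, had little called length except after 25HC then PAM3. It had 2499 and 945 bp untreated, 1562 and 3227 bp with PAM3, 0 and 315 bp with 25HC, and 6322 and 7867 bp with both. The 25HC libraries were the lowest and the 25HC then PAM3 libraries the highest, in both mice. Of 7 regions, all inside the gene, chr11:9283785-9285861 was called only in the 25HC then PAM3 libraries, with 1976 and 1938 bp. The region chr11:9314926-9317404 was called in both (2309 and 2435 bp) and in PAM3 B (1307 bp). The region chr11:9530923-9533133 was called in all 4 PAM3 libraries and in untreated A. The promoter was in none.

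Abcg5 (chr17:84658174-84683011), 1 subunit of the sterol transporter, had 1008 and 823 bp untreated and 540 and 574 bp with 25HC, and was listed at 0 in all 4 PAM3 libraries. The region chr17:84665572-84666280, inside the gene, was called in all 4 libraries without PAM3 with 540 to 696 bp and an authors' −log10 q of 14.5 to 35.6. The rest was 1 small peak in each untreated library, in a different place.

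Abcg8 (chr17:84676302-84700333), the partner of Abcg5, was 0 in a different set of libraries. It had 2283 and 2260 bp untreated, 1408 and 1934 bp with PAM3, 1767 and 1858 bp with 25HC, and 0 in both libraries given 25HC then PAM3. Nearly all of it was 1 region, chr17:84700789-84703101, called in 6 libraries at 1408 to 1986 bp. That region lies past the end of Abcg8 and in the window of Lrpprc, a regulator of mitochondrial mRNA, whose own called length was 2599 and 1536 bp in the 25HC then PAM3 libraries and 4272 to 6985 bp in the other 6. The peak values say nothing of which gene it belongs to. Peaks that touched the body of Abcg8 were found only in the untreated libraries, 1 in each, of 312 and 274 bp, and both also lie in the window of Abcg5.

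**Figure D3:**
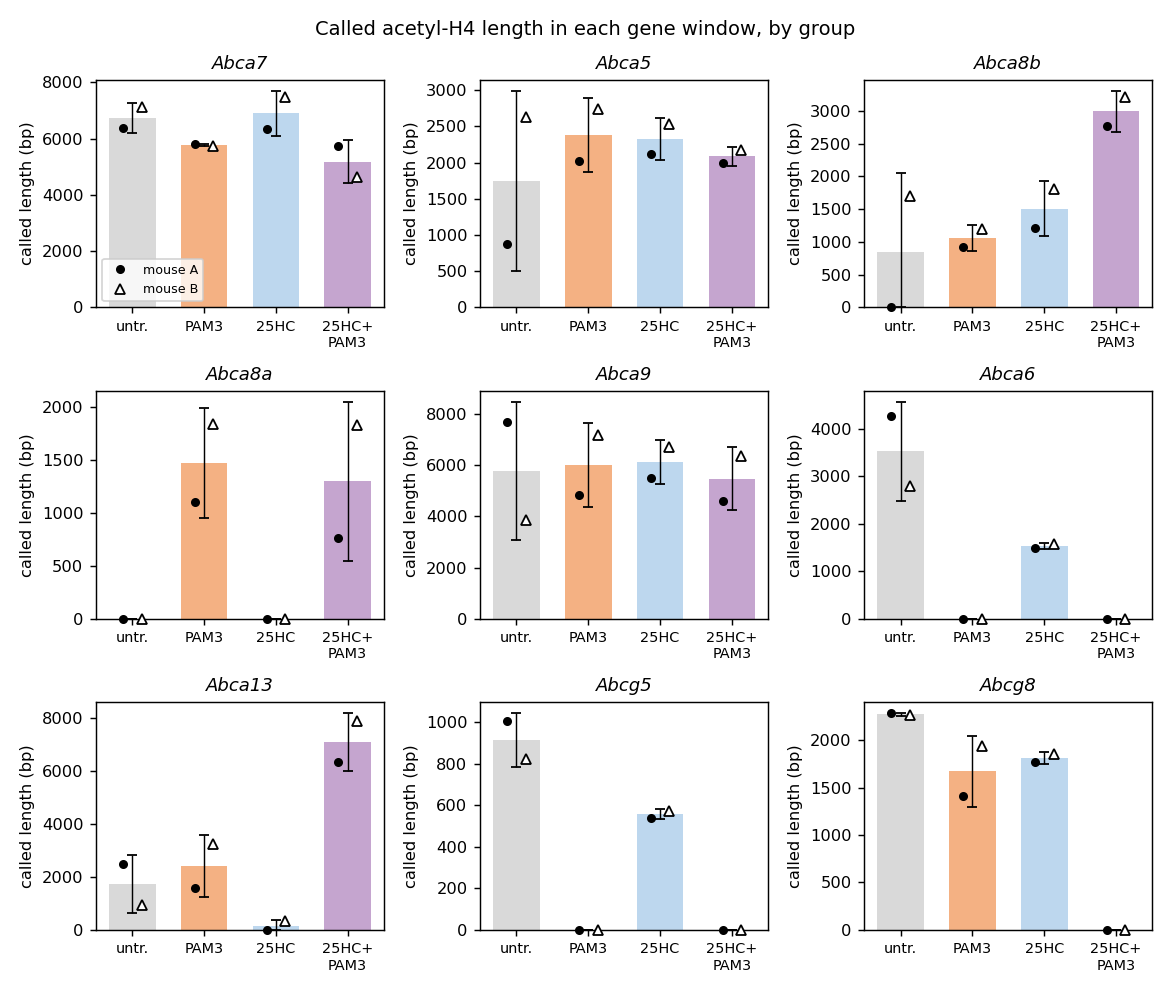
Called length (bp) in the window of each gene; bars are the mean and lines the SD of 2 libraries per group, and the point and the triangle are mouse A and mouse B. Abca6 and Abcg5 are at 0 in both PAM3 groups, Abca8a at 0 in both groups without PAM3, and Abcg8 at 0 after 25HC then PAM3, where Abca13 and Abca8b are highest.

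The first comparison asked what PAM3 does without 25HC. Abca6 and Abcg5 went from called length in both mice to 0, Abca8a went from 0 to 1107 and 1844 bp, and Abcg8 was lower in both mice. The difference for Abca7 was −571 bp in mouse A and −1376 bp in mouse B. On the log2 scale (500 bp are added to the called length before the log, and each library is centred on its median) Abca7 differed by −0.16 (SE 0.17), Abcg8 by −0.32 (SE 0.13), Abca5 by 0.51 (SE 0.37), Abca13 by 0.46 (SE 0.42), Abca8b by 0.61 (SE 0.65) and Abca9 by 0.14 (SE 0.31). Genes with a group at 0 are given by length alone, since the added 500 bp sets their log2 value. Without untreated A, Abca5 was at −0.10 and Abca8b at −0.47. Without untreated B, Abca9 was at −0.30 and Abca13 at −0.06, and with peaks of −log10 q of at least 5 alone Abcg8 was at 0.79. The 2 mice differed in sign for Abca8b, Abca9 and Abca13 and had the same sign for the other 6. For Abca6, Abca8a and Abcg5 a group at 0 in both mice sets that sign. A limma model over all 14589 genes called 564 (3.87%) at a Benjamini-Hochberg adjusted p under 0.05, 276 higher and 288 lower. Abca8a (higher) and Abca6 (lower) met that threshold. Nothing is read from this, here or for single genes of the 9 in the next comparisons, because they were selected on these lengths. A further reason is that Abca8a passed the minimum through its PAM3 libraries alone, and Abca6 through its libraries without PAM3 alone. The count was 168 with the mouse as a block and 160 (without untreated A) to 872 (without PAM3 A) with 1 library left out. The call of Abca6 held in 13 of 15 alternative fits and was lost with peaks of −log10 q of at least 5 alone and without untreated A. That of Abca8a held in 3 of 15 and was lost with the mouse as a block and when any 1 of the 8 libraries was left out.

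Without regard to 25HC, the 4 PAM3 libraries did not overlap the 4 others for Abca6, Abca7 and Abca8a, among the 8 genes past the minimum. The same was true of 16.8% of tested genes. Abcg5, short of the minimum and so outside that share, did not overlap either, with 540 to 1008 bp without PAM3 and 0 with it.

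The next comparison gave PAM3 after 25HC. All 9 genes had the same sign in both mice. For Abca6, Abca8a, Abcg5 and Abcg8 a group at 0 in both mice sets that sign. No share over all genes stands beside this count, and nothing is read from it. Abca13 had 6322 and 7552 bp more than with 25HC alone, in mouse A and B, and Abca8b had 1566 and 1416 bp more. Abca8a again left 0, while Abca6 and Abcg5 again went to 0 and Abcg8 did so as well. Abca13 differed by a log2 of 3.54 (SE 0.42), Abca8b by 0.79 (SE 0.65), Abca7 by −0.41 (SE 0.17), Abca9 by −0.18 (SE 0.31) and Abca5 by −0.15 (SE 0.37). The 25HC libraries of Abca13 are so near 0 that the added length sets much of its value, which was 5.11 with 100 bp added. Abca7 was at 0.16 with the −log10 q minimum of 5. The limma model called 733 genes (5.02%), 398 higher and 335 lower, and of the 8 genes Abca13 (higher), Abca6 and Abcg8 (lower) were among them. The count was 281 with the mouse as a block and 108 (without 25HC B) to 814 (without PAM3 A) with 1 library left out. The calls of Abca13 and Abca6 each held in 11 of 15 alternative fits, and were lost with peaks of −log10 q of at least 5 alone and without 25HC A, 25HC B or 25HC then PAM3 B. That of Abcg8 held in 13 of 14, all but the −log10 q minimum. Abcg8 had no value with 1 kb flanks, where it fell under the minimum length. Its main called region lies past the end of the gene, in the window of Lrpprc as well.

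Before any PAM3, 25HC was set against no treatment. The 4 genes Abca6, Abca13, Abcg5 and Abcg8 were lower with 25HC in both mice, with −2781 and −1218 bp for Abca6, and Abca8b was higher by 1206 and 98 bp. None of the 8 genes was among the 5 of 14589 (0.0343%) that limma called. At an unadjusted p under 0.05 the count was 678 genes, 2 of the 8 among them. On the log2 scale Abca6 differed by −0.90 (SE 0.25), Abca13 by −1.64 (SE 0.42), Abca8b by 0.98 (SE 0.65), Abca5 by 0.51 (SE 0.37), Abcg8 by −0.20 (SE 0.13), Abca9 by 0.20 (SE 0.31) and Abca7 by 0.09 (SE 0.17). The untreated libraries decided several of these. Without untreated A, Abca5 and Abca8b were both at −0.10, and without untreated B they were at 1.11 and 2.06 and Abca9 at −0.24. Abca8b was then called higher, and the untreated library left was the one with 0 bp there. With 100 bp added Abca13 was at −2.94, and with the −log10 q minimum Abcg8 was at 0.77 and Abca9 at −0.39.

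The fourth comparison set cells given both agents against those given PAM3 alone. Abca13 had 4760 and 4640 bp more with 25HC first, and Abca8b had 1857 and 2015 bp more. Abcg8 went from 1408 and 1934 bp to 0, and Abca6 and Abcg5 were at 0 in both groups. Abca7, Abca9, Abca5 and Abca8a were lower in both mice, with −342 and −12 bp for Abca8a. Abca13 differed by a log2 of 1.44 (SE 0.42), Abca8b by 1.16 (SE 0.65), Abca8a by −0.19 (SE 0.36), Abca7 by −0.16 (SE 0.17), Abca5 by −0.15 (SE 0.37) and Abca9 by −0.12 (SE 0.31). Of these, Abca7 was at 0.74 and Abca8a at 0.22 with the −log10 q minimum, and Abca7 (0.02 without 25HC then PAM3 B), Abca8a (0.21 without 25HC then PAM3 A) and Abca9 (0.03 without PAM3 B, 0.05 without 25HC then PAM3 A) also turned positive. The model called 190 genes (1.3%), 97 higher and 93 lower, with Abcg8 among the lower, and 0 genes with the mouse as a block. That call held in 8 of 14 alternative fits. It was lost with the mouse as a block, with the −log10 q minimum, and without either untreated or either 25HC library.

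In called length, both libraries given 25HC then PAM3 lay above the other 6 for Abca13 and Abca8b and below them for Abca7 and Abcg8. Of tested genes, 17.1% had this pair above or below all others. For Abca7 the gap was narrow, with 5724 bp in 25HC then PAM3 A and 5740 bp in PAM3 B. The regions behind the values of Abca7 and Abcg8 lie past the ends of these genes, as given above.

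The last of the 5 comparisons set the PAM3 difference in 25HC-treated cells against that in cells without 25HC. Abca13 had the largest one among these genes, 7259 bp in mouse A and 5270 bp in mouse B, with a log2 of 3.08 (SE 0.59). That log2 lay between 2.56 and 4.54 over the alternatives. The difference was 2781 and 1218 bp for Abca6, 651 and 1917 bp for Abca8b and −892 and −1532 bp for Abcg8. For Abca6 and Abcg5 it is the untreated length minus the 25HC length, since both PAM3 groups are at 0. On the log2 scale Abca5 differed by −0.66 (SE 0.53), Abca9 by −0.33 (SE 0.44), Abca7 by −0.25 (SE 0.24) and Abca8b by 0.18 (SE 0.92). Of these, Abca7 was at 0.59 with the −log10 q minimum, Abca8b at −0.55 with 100 bp added, and without untreated B Abca8b was at −0.90 and Abca9 at 0.12. The limma model called 0 of 14589 genes (0%), with 1438 at an unadjusted p under 0.05, of which 3 were among the 8 genes. A p that misses the threshold does not show that the responses were alike, and all 5 comparisons share groups. Abcg8 was called without PAM3 A and without 25HC then PAM3 A.

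**Figure D4:**
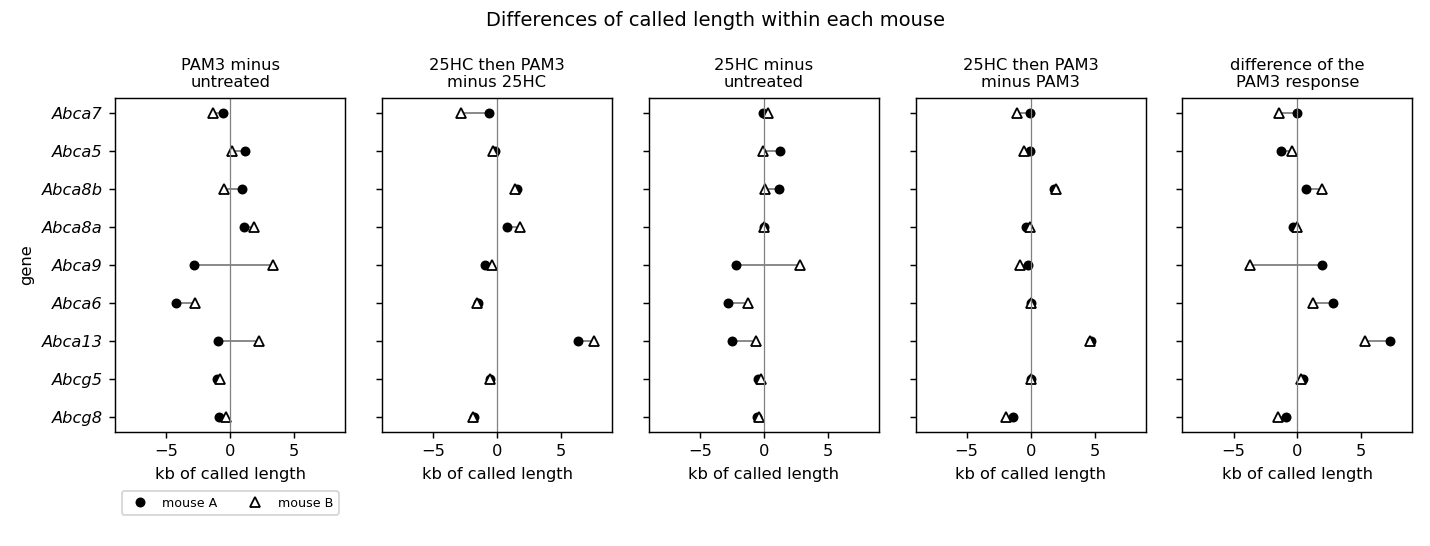
Difference of called length (kb) in mouse A (points) and mouse B (triangles) for each gene in the 5 comparisons, with a line joining the mice; the last panel is the second difference minus the first. Abca13 lies between 4640 and 7552 bp to the right in both panels of 25HC then PAM3, while the mice fall on opposite sides of 0 for Abca9 in 3 panels.

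Of 40 further ABC genes 35 were tested, and limma called none in 4 of the 5 comparisons. At an unadjusted p under 0.05 there were 6 for PAM3 against untreated (2794 of all 14589 genes), 0 for 25HC against untreated (678), 2 for 25HC then PAM3 against PAM3 (2173) and 3 for the difference (1438). In 25HC then PAM3 against 25HC, 1 of the 35 rose and 1 fell, where 5.02% of all tested genes were called, so the list's share was near the background. Abcc8, the sulfonylurea receptor of potassium channels, went from 0 in both libraries to 2888 and 2706 bp (limma adjusted p = 0.0249). Abca14 went from 950 and 1164 bp to 0 (limma adjusted p = 0.0453). With the mouse as a block the adjusted p was 0.054 for Abcc8 and 0.0605 for Abca14, and of the 8 fits without 1 library, Abcc8 was called in 4 and Abca14 in 0. The adjusted p was highest without 25HC B, at 0.112 for Abcc8 and 0.178 for Abca14. Median log2 differences of the list lay between −0.03 and 0.05, against −0.02 to 0.01 for all tested genes. Abca1 had 9690 to 16598 bp and Abcg1 6946 to 9988 bp over the 8 libraries, and neither passed in any comparison. The gene of smallest p elsewhere was Abcd4 for PAM3 against untreated (1398 and 1443 bp against 2027 and 2044 bp), Abca4 for 25HC against untreated, and Abca14 for the other 2.

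Of 32 genes for cholesterol export, uptake and oxysterol sensing 30 were tested, and 3 rose in 25HC then PAM3 against 25HC, with none lower, where 398 of all 14589 genes rose and 335 fell (5.02% in all). They were Cd36, a scavenger receptor for oxidised lipoproteins, with a log2 of 0.68 (SE 0.10, limma adjusted p = 0.0257), the phosphodiesterase gene Smpdl3a with 0.70 (SE 0.11, limma adjusted p = 0.0275) and Mylip, which marks the LDL receptor for degradation, with 0.99 (SE 0.19, limma adjusted p = 0.0478). Cd36 had 14197 and 14809 bp with 25HC and 21986 and 25994 bp with both agents, Smpdl3a 1598 and 1599 against 2973 and 2952 bp, and Mylip 3390 and 2548 against 6594 and 6364 bp. Each of the 3 lost its call with the mouse as a block (adjusted p 0.0565 for Cd36 and for Smpdl3a, 0.0856 for Mylip) and was called in only 3, 2 and 2 of the 8 fits without 1 library, in which the adjusted p reached 0.118, 0.132 and 0.170 without 25HC B. In the other 4 comparisons limma called none of the 30, with 10, 1, 6 and 3 at an unadjusted p under 0.05 in the order above, beside the same 2794, 678, 2173 and 1438 of all genes. The smallest p there belonged to Smpdl3a, to Scarb1 (12026 and 11512 bp untreated, 8117 and 9309 bp with 25HC), to Apoe (5102 and 5366 bp with PAM3, 3693 and 2633 bp with both agents) and to Srebf1. The medians of this list lay between −0.03 and 0.03.

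Windows that overlap those of the 9 genes gave no further call. Cnn2, next to Abca7, had 7222 to 7527 bp in all 8 libraries. Arhgap45, on the other side, had 5321 to 6431 bp with PAM3 and 6707 to 7790 bp without. Dync2li1, next to Abcg5, had 958 and 2606 bp with PAM3 and 2576 to 4682 bp in the other 6.

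The pattern of each gene over the 8 libraries was set beside all other tested genes more than 1 Mb away, by Pearson's r of the log2 values, as a description. The closest 3 for Abca6 were Spata22 and Aspa, which overlap each other and had the same called lengths (r = 0.999), and Tgfa (r = 0.990). For Abca8a they were Car13 (r = 0.997), Mcpt2 (r = 0.993) and Cd226 (r = 0.991), and for Abcg8 H2-Q7 (r = 0.996), Mrps30 (r = 0.992) and Golph3 (r = 0.990). Mcpt2 and Cd226, like Abca8a, were at 0 in the 4 libraries without PAM3, and H2-Q7, Mrps30 and Golph3, like Abcg8, at 0 after 25HC then PAM3. For Abca13 they were Babam2, Cdk6 and Ift57 (r = 0.97, 0.96 and 0.96), and for Abca8b Tet1 and Bbs2 (r = 0.98 and 0.96). For Abca5 they were Inf2, Lgr4 and Ldhb (r = 0.99, 0.98 and 0.98), for Abca7 H2ac18, Spint2 and Anxa3 (r = 0.97, 0.96 and 0.95), and for Abca9 Sap130, Dtnbp1 and another ABC gene, Abcb1b (r = 0.98, 0.95 and 0.93). Genes with r of at least 0.95 numbered 101 for Abca8a, 88 for Abca6 and 81 for Abcg8 but 2 for Abca9 and 3 for Abca7. Values at or near 0 in whole groups leave few distinct points. Among the 8 genes themselves, Abca6 and Abca8a had r = −0.95, Abca7 and Abca13 r = −0.80, and Abca5 and Abca8b r = 0.76, with untreated A low in both of the last pair.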

How the data were processed

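The authors' deposited broadPeak lists, 1 per acetyl-H4 library, were the only data. The submitters' processing notes name GSNAP (a read aligner), MACS2 2.1.0 (a peak caller) and the build GRCm38 (mm10). Which control libraries, read filters and thresholds the calls rest on is not given in the sources used here. Start and end of each peak were used as deposited. The deposited score, which is 10 times the −log10 q cut to a whole number in nearly all peaks, was not used further. The authors' fold ratio and −log10 p and −log10 q columns only describe or filter peaks.

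Called length was summed in Python 3.11.15 over gene bodies of a RefSeq table (GRCm38.p6) with 5 kb on either side. The values are log2 of called length plus 500 bp, less each library's median. They went into limma 3.58.1 (R 4.3.3, trend and robust) with 4 groups, 4 residual degrees of freedom and a median prior of 1.77, and with Benjamini-Hochberg adjustment over all genes. A p-value here measures the spread between libraries of 2 mice. Where both libraries of a group are at 0 they show no spread, and the adjusted p can be too small.

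The members, both gene lists, the markers, the tests and the alternatives were chosen with earlier results of these data known. Named genes were the 9 members, genes with overlapping windows, Abca1 and Abcg1, up to 6 passing genes per list and comparison (or the 1 of smallest p) and, for likeness, the 3 genes of highest r, leaving out predicted genes and olfactory and vomeronasal receptors. One gene that this rule picked is not reported here. Libraries of a letter come from 1 mouse, per the labels, and so are paired. As a check, the correlation of same-mouse deviations was −0.0170 to 0.0304. The block was an alternative. The others were leaving out each library, peaks of −log10 q of at least 5, whole peaks, 1 kb flanks, 100 bp added, no minimum and no median subtraction.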

Additional observations from a re-analysis of the deposited data

Results flagged for a closer look

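Abca5 moved one way with PAM3 in cells without 25HC and the other way in cells with it, in both mice. Its called length was 628 bp higher with PAM3 than in untreated cells (mean of the 2 mice, 1148 bp in A and 108 bp in B). The difference of 25HC then PAM3 against 25HC was −235.5 bp (−124 and −347 bp). In untreated A, the baseline of the 1148 bp, the promoter region of Abca5 was not called. That region had 1192 to 1313 bp in the 7 libraries where it was called. In the limma fit the difference of the responses was −0.66 on the log2 scale (SE 0.53) and was not among the calls. Without untreated B the first value was called higher, and without untreated A its log2 difference was −0.10.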

How the results depend on the processing

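The number of genes called depended strongly on the fit. With the mouse as a replicate block it was 168 for PAM3 against untreated (564 without the block), 281 for 25HC then PAM3 against 25HC (733), 0 for 25HC against untreated (5) and 0 for 25HC then PAM3 against PAM3 (190). The block ended the calls of Abca8a in the first, of Abcg8 in the last and of the 5 list genes, and changed no other call named. Keeping just the peaks with −log10 q at 5 or above, all 4 counts were 0. Without median subtraction they were 321, 360, 5 and 91. The count for the difference of the responses went from 0 to 5 with 1 kb flanks and to 3 with 100 bp added. Leaving out 1 library gave 160 (without untreated A) to 872 (without PAM3 A) for the first, 108 (without 25HC B) to 814 (without PAM3 A) for the second, 0 to 97 (without untreated B) for the third, 0 (without either untreated or either 25HC library) to 434 (without PAM3 A) for the fourth, and 0 to 192 (without PAM3 A) for the difference. The group left with 1 library was then assumed to vary like the others. The cause was not tested. Abcg8 had no value with 1 kb flanks, where it fell under the minimum. Of the called values of the 9 genes none changed sign in these fits. Each of them compares a group at or near 0, so the sign could hardly turn, and no stability is read from this. Peak lists give no depth, so a length of 0 means only that no peak was called.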
